A study of Mus musculus with 12 samples.

Results

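Zfp genes encode zinc finger proteins, and 286 of them were followed here in 12 RNA-seq libraries from a pair of mouse embryonic fibroblast (MEF) lines. The members are the genes of the deposited count table whose symbol is Zfp followed by digits, leaving out Zfp36, an RNA-binding protein with another type of finger, and whose mean level over the 12 libraries was at least 1 CPM (the count over the library's total, times 1e6). Of 354 genes with such a symbol among the 37310 of the table, 286 reached this level and 68 did not. The rule uses the symbol and the mean level, and the gene group itself was picked with earlier results of these data known. Just inside the threshold were Zfp791 (1.01 CPM), Zfp934 (1.105) and Zfp108 (1.12), and just outside it Zfp493 (0.861), Zfp981 (0.769) and Zfp14 (0.742). Every one of the 286 also passed the filter on low counts that left 16630 genes for testing.

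In this pair 1 line stands for each genotype. The line called HPg was made to express HP1γ again (recomplemented), and the other, labelled knockout (KO), lacks HP1γ, which the gene Cbx3 encodes. Each was harvested untreated or after 100 nM phorbol 12-myristate 13-acetate (PMA, an activator of protein kinase C) in DMSO for 30 min, near confluence, which gives 4 groups of 3 libraries. Line and genotype therefore cannot be told apart, and the sources used here do not name the vehicle of the untreated cells or the promoter that drives the restored HP1γ. In bulk RNA, fewer cells that express a gene and less RNA per cell cannot be told apart.

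Most Zfp proteins bind DNA through tandem zinc fingers, and many carry a KRAB domain. KRAB recruits the corepressor Trim28, which brings the histone methyltransferase Setdb1 and HP1 proteins to the bound site and so silences retrotransposons, imprinted regions and other targets. The genes arose by repeated duplication and lie in clusters of related neighbours, whose bodies can themselves carry methylated histone H3 and HP1. Other Zfp genes have no KRAB domain and encode developmental regulators, splicing factors or mitotic proteins.

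Total counts per library ranged from 111458145 to 159929347, and HPg library 2 detected 17822 genes against at least 19759 in each of the others. Cbx3 did not check the labels, since without PMA HPg gave 38.7 ± 2.45 CPM and the libraries labelled knockout 36.5 ± 2.20 CPM (SD, n = 3 each). Fibroblast markers summed to 9483 to 17020 CPM in every library, while blood and immune markers summed to at most 0.386 CPM, endothelial to at most 3.90, epithelial to at most 9.31 and muscle to at most 1.36 (Myod1 at 0, though Des was called higher in KO-labelled cells with PMA at log2 1.76). The fibroblast sum was uneven, with means over the 12 libraries of 4733 CPM for Col1a1 and 3615 for Vim but 10.05 for Col1a2. Thy1, of the same list of 8, did not pass the filter on low counts. Neural markers summed to 157 to 357 CPM, nearly all of it Map2 (mean over the 12 libraries 228.4 CPM). Rbfox3 was at 0.062 CPM, and Tubb3 and Sox2 were at 0. PMA was visible in both lines through the immediate-early factor Fos, which went from 2.10 ± 0.656 to 143 ± 40.3 CPM in HPg and from 2.70 ± 1.29 to 302 ± 100.6 CPM in KO-labelled cells.

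The members sit on 20 chromosomes, with 73 on chromosome 7, 35 on chromosome 17 and 23 on chromosome 13. Of the 286, 285 are annotated as protein coding and 1 as a transcribed pseudogene. A count of fingers in the longest reading frame gave a median of 11, with 37 in Zfp142 at the top and none matching the pattern in 7 members. Repeated fingers make the genes hard to tell apart by short reads. In 24 members more than 10% of all stretches of 75 bases occur also in the transcript of another gene, and 199 members share no such stretch. Genes whose exons overlap the member were left out of this count. One finger unit from each of 3 members of a cluster on chromosome 13, called lower with PMA in KO-labelled cells, shows how close the copies are. Each unit runs over 84 bases 5′ to 3′ from the GENCODE M21 transcripts (GRCm38), and capitals mark the positions at which the 3 genes differ:
Zfp273: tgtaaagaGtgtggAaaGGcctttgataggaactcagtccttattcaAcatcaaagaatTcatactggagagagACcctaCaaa
Zfp85: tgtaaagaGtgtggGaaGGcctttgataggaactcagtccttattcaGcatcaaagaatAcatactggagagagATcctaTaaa
Zfp708: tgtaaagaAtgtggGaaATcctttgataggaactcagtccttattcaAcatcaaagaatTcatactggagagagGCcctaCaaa
Zfp85 and Zfp708 each differ from Zfp273 at 5 of these 84 bases. Across the whole transcript, 12.8% of the stretches of Zfp273 recur elsewhere, with Zfp85 the leading partner, and 14.2% of those of Zfp85 recur, with Zfp273 the leading partner. The sources used here do not say how reads mapping to several places were counted, so values of such pairs are uncertain.

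Levels of the members spanned a wide range. Their mean over the 12 libraries ran from 1.01 to 300.6 CPM with a median of 12.4, and 121 members lay below 10 CPM, 155 between 10 and 100 and 10 at 100 or above. The highest was Zfp521, a large regulator of fat and bone cell fate, at 300.6 CPM. It was followed by Zfp207, a kinetochore and splicing protein (175.0 CPM), Zfp516, an activator of thermogenic fat genes (168.7), Zfp91, a ubiquitin ligase (157.2), Zfp644, a partner of the methyltransferase G9a (138.5), Zfp106, an RNA-binding protein (132.7), Zfp407 (129.9), Zfp638 (113.1), Zfp266 (111.7) and Zfp740 (101.4). Per kilobase of transcript, Zfp207 came first (53.4 CPM per kb), before Zfp521 (48.4), Zfp91 (28.4), Zfp740 (23.9) and Zfp771 (23.9).

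The first question was how Zfp RNA moves within 30 min of PMA. More members fell than rose in both lines. In HPg cells 15 of 286 members were called lower and 5 higher (edgeR quasi-likelihood test, adjusted p below 0.05 over all 16630 genes), that is 5.24% lower where 0.92% of all genes tested were called lower and 2.53% higher. In KO-labelled cells 37 members were called lower and 5 higher, that is 12.9% lower against backgrounds of 1.63% lower and 2.81% higher. With the replicate number as a block, 48 members were called lower and 17 higher in HPg (backgrounds 6.19% and 8.62%), and 84 lower and 16 higher in KO-labelled cells (backgrounds 6.56% and 6.79%). All 15 and all 37 were among those calls. DESeq2 called 34 lower and 12 higher in HPg (backgrounds 2.46% and 4.73%) and 67 lower and 12 higher in KO-labelled cells (backgrounds 3.34% and 4.35%).

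**Figure D1:**
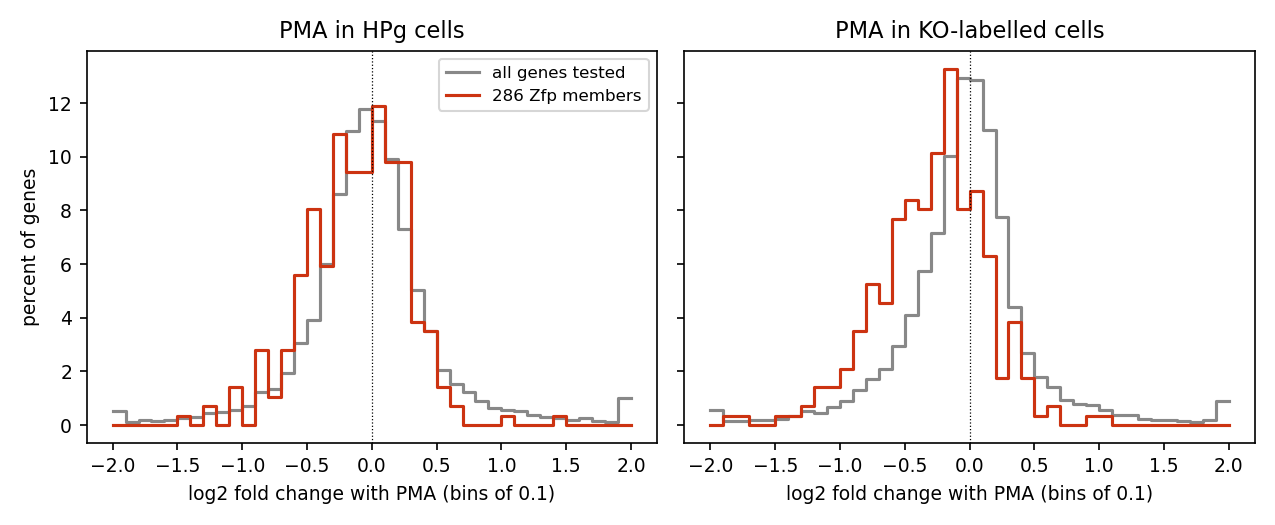
Share of genes (percent) in bins of 0.1 of the log2 fold change with PMA, for the 286 Zfp members and for all 16630 genes tested, in HPg (left) and KO-labelled cells (right); the outermost bins hold all more extreme values. The members' curve lies to the left of the curve of all genes in the KO-labelled panel (medians -0.24 and -0.02) and less so in HPg (-0.09 and -0.02).

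The shift was not restricted to the called members. The median log2 fold change with PMA was -0.09 over the members in HPg, with 167 of 286 below 0, beside -0.02 over all genes. Within replicate numbers the HPg medians were 0.05, -0.19 and -0.14, so number 1 went the other way, and the HPg median was -0.05 without HPg library 2, -0.17 with upper-quartile factors and -0.05 beside -0.03 over all genes with chromosome medians removed. In KO-labelled cells it was -0.24, with 217 below 0, beside -0.02 over all genes. With GC content and length corrected, these medians were -0.16 beside -0.04 in HPg and -0.20 beside -0.01 in KO-labelled cells. The 3 PMA libraries lay below the 3 untreated ones, with no overlap, for 71 members in HPg (24.8%, background 10.3%) and for 117 in KO-labelled cells (40.9%, background 11.3%). The reverse held for 32 members in HPg (11.2%, background 12.3%) and 23 in KO-labelled cells (8.04%, background 10.6%). Leaving out 1 library changed the counts of calls. In KO-labelled cells 12 members were called, in place of 42, without KO library 3 or KO PMA library 2, 21 without KO library 2, 24 without KO library 1 and 26 without HPg library 3. In HPg, 5 were called, in place of 20, without HPg PMA library 3, 8 without HPg library 3 or HPg PMA library 2, 9 without HPg library 2, 10 without HPg PMA library 1, 11 without HPg library 1 and 13 without KO library 3.

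Zfp948 and Zfp655 rose most, in both lines. Zfp948 stood at 24.4, 34.7 and 35.0 CPM in the 3 untreated HPg libraries and at 98.8, 85.6 and 76.7 CPM with PMA. In KO-labelled cells it stood at 29.3, 38.3 and 34.6 CPM untreated and at 65.6, 68.5 and 71.7 CPM with PMA. Every PMA library was above every untreated one, and the log2 fold changes were 1.47 ± 0.16 (SE) in HPg (edgeR quasi-likelihood test, adjusted p = 0.000293) and 1.01 ± 0.16 in KO-labelled cells (adjusted p = 0.00307). Zfp655 went from 27.8, 30.1 and 31.9 to 57.5, 74.3 and 60.4 CPM in HPg and from 32.3, 37.1 and 35.2 to 56.6, 71.2 and 70.0 CPM in KO-labelled cells. Its groups did not overlap either, and its log2 fold changes were 1.10 ± 0.13 (edgeR adjusted p = 0.000629) and 0.92 ± 0.13 (adjusted p = 0.0017). Both genes kept their call in both lines whichever of the 12 libraries was left out.

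The other rises were smaller. Zfp384, which binds promoters of extracellular matrix genes, went from 31.7 ± 1.31 to 45.7 ± 2.63 CPM in HPg and from 28.1 ± 2.63 to 39.0 ± 4.48 CPM in KO-labelled cells (edgeR adjusted p = 0.0273 and 0.0377, n = 3 per group). Zfp326, a subunit of a complex that couples transcription to splicing, was called in HPg, from 25.6 ± 1.80 to 39.5 ± 2.39 CPM (log2 0.63, edgeR adjusted p = 0.0229). In KO-labelled cells it had a log2 fold change of 0.31 (edgeR adjusted p = 0.264, and 0.0358 with the replicate block). Zfp62 was called in HPg (log2 0.51) and Zfp142 (0.68) and Zfp787 (0.39) in KO-labelled cells. Zfp142 overlaps exons of Plcd4, and its log2 fold change in HPg was 0.59 (edgeR adjusted p = 0.0898, and 0.000344 with the block). These 5 genes lost their call when some single libraries were left out, Zfp787 with each of the 12.

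Zfp273, Zfp108 and Zfp362 fell most. Zfp273 had 2.39, 3.27 and 3.03 CPM in untreated HPg libraries and 1.404, 0.907 and 1.22 CPM with PMA. In KO-labelled cells it had 2.66, 3.79 and 3.71 CPM untreated and 0.846, 0.723 and 1.19 CPM with PMA. No PMA library reached an untreated one, and the log2 fold change was -1.30 ± 0.26 in HPg (edgeR adjusted p = 0.0191) and -1.88 ± 0.27 in KO-labelled cells (adjusted p = 0.00153). Zfp108 moved from 1.31, 1.08 and 1.35 to 0.705, 0.343 and 0.498 CPM in HPg and from 2.17, 2.05 and 1.92 to 0.698, 0.595 and 0.515 CPM in KO-labelled cells. The groups were apart in both lines, with log2 fold changes of -1.27 ± 0.28 (edgeR adjusted p = 0.0289) and -1.76 ± 0.28 (adjusted p = 0.00377). Zfp362 moved from 6.46, 13.2 and 10.4 to 3.63, 4.37 and 2.92 CPM in HPg and from 10.99, 15.4 and 13.6 to 5.48, 5.48 and 3.99 CPM in KO-labelled cells. Its log2 fold changes were close to each other, -1.46 ± 0.26 in HPg (edgeR adjusted p = 0.00873) and -1.42 ± 0.26 in KO-labelled cells (adjusted p = 0.00786), again with no overlap. Of these calls, those of Zfp273 and Zfp108 in HPg were lost without HPg library 3 or either of HPg PMA libraries 2 and 3, among others, and the remaining 4 were kept whichever library was left out.

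**Figure D2:**
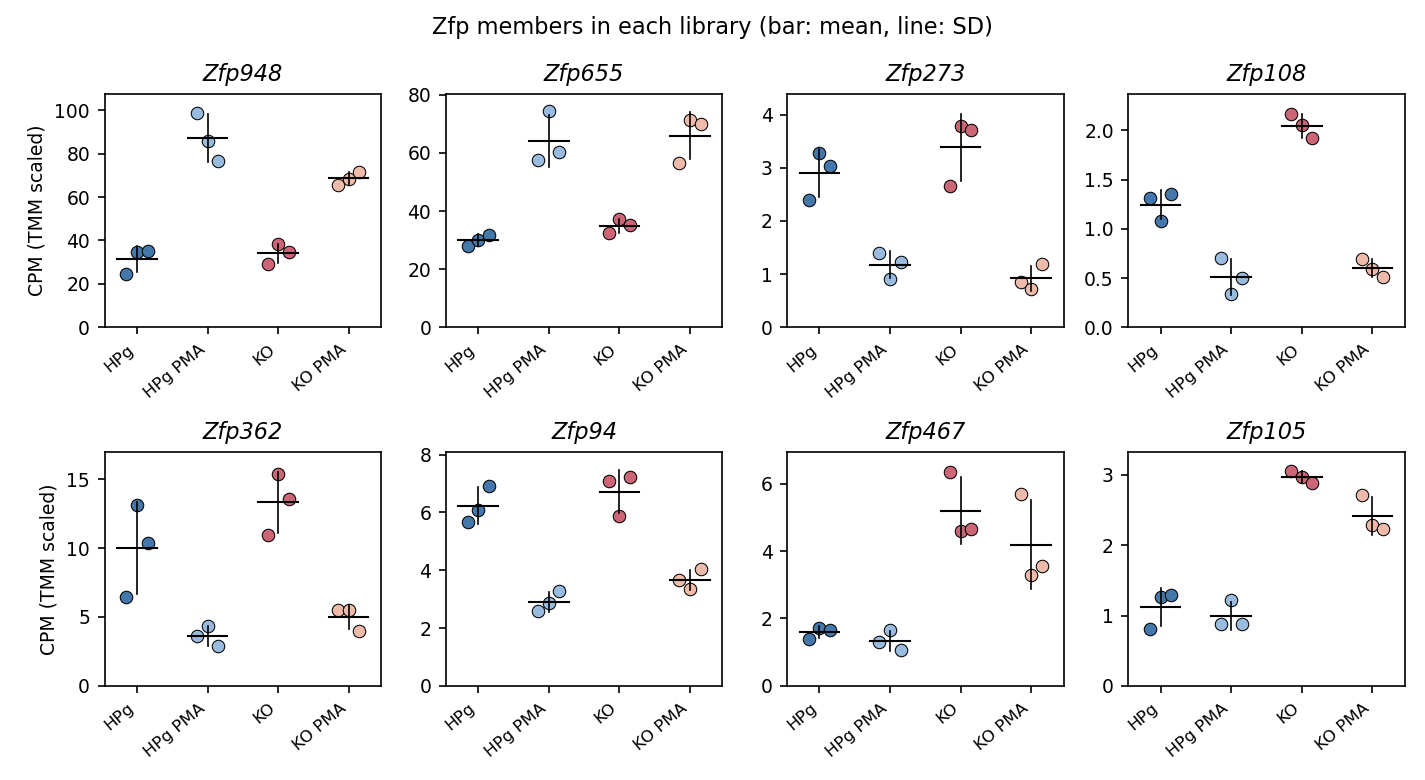
CPM (TMM scaled, linear axes from 0) of 8 members in each of the 12 libraries, by group; points are libraries, horizontal bars the mean and vertical lines the SD of 3 libraries. The PMA libraries of Zfp948 and Zfp655 lie above and those of Zfp273, Zfp108, Zfp362 and Zfp94 below the untreated libraries of the same line, while Zfp467 and Zfp105 are higher in KO-labelled cells with and without PMA.

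In HPg the called decreases ran from -1.46 to -0.59 (log2). After Zfp362, Zfp273 and Zfp108 came Zfp94 (-1.10), Zfp551 (-1.05), Zfp128 (-1.04), Zfp324 (-0.88), Zfp691 (-0.82), Zfp964 (-0.82), Zfp3 (-0.79), Zfp956 (-0.65), Zfp235 (-0.60), Zfp41 (-0.60), Zfp12 (-0.59) and Zfp316 (-0.59). Zfp94 fell from 6.22 ± 0.644 to 2.91 ± 0.350 CPM and Zfp128 from 5.65 ± 0.469 to 2.76 ± 0.0884 CPM (n = 3 per group). Zfp362, Zfp94 and Zfp128 are the 3 of these 15 that stayed called whichever library was left out, and without HPg PMA library 3 the other 12 were not called. Zfp956 shares exons with Zfp783.

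In KO-labelled cells the called decreases ran from -1.88 to -0.45 (log2). The 15 largest, besides Zfp273, Zfp108 and Zfp362, were Zfp551 (-1.33), Zfp418 (-1.28), Zfp808 (-1.27), Zfp975 (-1.20), Zfp85 (-1.16), Zfp708 (-1.15), Zfp39 (-1.13), Zfp608 (-1.08), Zfp128 (-1.06), Zfp937 (-1.06), Zfp53 (-0.97) and Zfp40 (-0.96). Zfp608, the most abundant of these 15, went from 36.0, 69.9 and 50.8 to 24.0, 25.9 and 24.4 CPM (edgeR adjusted p = 0.0216). Zfp418 went from 2.67 ± 0.518 to 1.10 ± 0.132 CPM and Zfp128 from 7.73 ± 0.467 to 3.71 ± 0.365 CPM (n = 3 per group). Zfp273, Zfp108, Zfp362, Zfp551, Zfp418, Zfp975 and Zfp128 stayed called whichever library was left out, and the other 8 did not, each of them losing the call without KO library 3. More than 10% of the stretches of Zfp808 (26.0%), Zfp975 (24.2%), Zfp937 (18.6%), Zfp85 and Zfp273 recur in another gene. The 24 members with that much shared sequence had a median of -0.61 in KO-labelled cells with 7 called lower (29.17%). The 199 that share none by that count had a median of -0.20 with 18 called lower (9.05%).

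The responses of both lines resembled each other. Of the members called lower, 12 were called in both, which is 80% of the HPg list and 32.4% of the KO list: Zfp108, Zfp12, Zfp128, Zfp235, Zfp273, Zfp324, Zfp362, Zfp41, Zfp551, Zfp691, Zfp94 and Zfp964. Of the members called higher, Zfp384, Zfp655 and Zfp948 were called in both, 60% of each list. Of the 37 called lower in KO-labelled cells, 36 had a log2 fold change below 0 in HPg, and all 15 of the HPg list were below 0 in KO-labelled cells. Across the 286 members the PMA fold changes of the lines, which share no library, correlated with Pearson's r of 0.744 and Spearman's rho of 0.663, where members are not independent of each other. Below 0 in both lines were 151 members, in KO-labelled cells alone 66, in HPg alone 16, and above 0 in both 53.

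**Figure D3:**
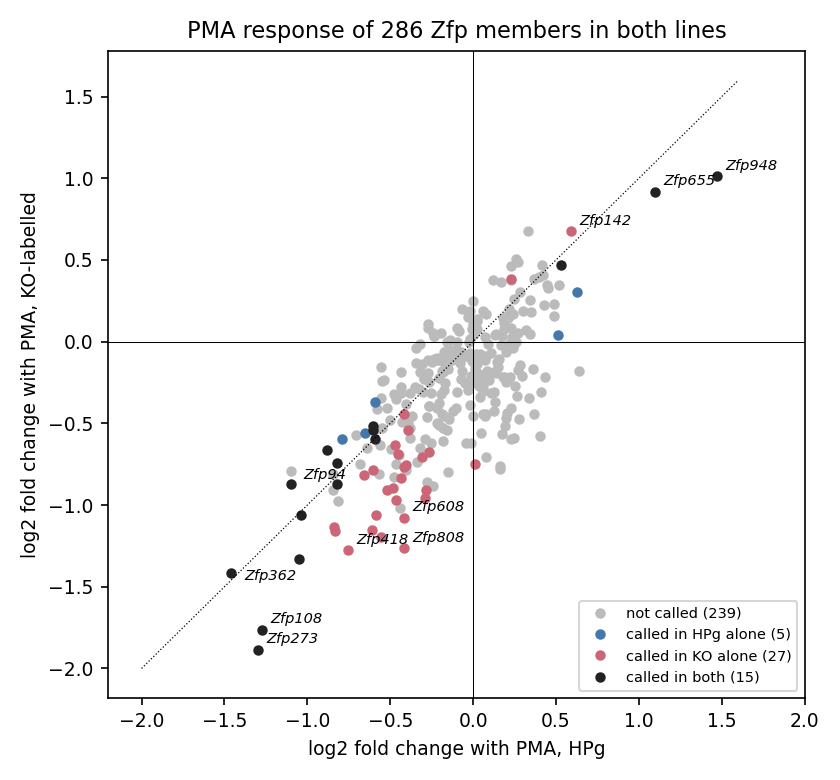
Log2 fold change with PMA in HPg (horizontal) against KO-labelled cells (vertical) for 286 members, coloured by where the edgeR test called them; the dotted line marks equal change. Called members lie near or below the dotted line on the decreasing side, and 66 members lie above 0 in HPg and below 0 in KO-labelled cells.

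Whether PMA acts differently in the lines is asked by the interaction of line and PMA. No member passed (edgeR quasi-likelihood, 0 of 286 and 0 of all 16630 genes, a background of 0.0%, 0 members with the replicate block, and 0 members with DESeq2, whose background was 0.00601% higher and 0.0% lower). At an unadjusted p below 0.05 there were 15 members, 5.24% of them, beside 328 of all genes tested or 1.97%, and all 15 had a lower PMA fold change in KO-labelled cells. The median interaction over the members was -0.13 (log2, 192 of 286 below 0), beside 0.02 over all genes. The 4 members with the smallest unadjusted p below 0 were Zfp386 (-0.84 ± 0.28 SE), Zfp945 (-0.76 ± 0.26), Zfp947 (-0.76 ± 0.26) and Zfp944 (-0.65 ± 0.23), and above 0 Zfp428 (0.38 ± 0.24), Zfp316 (0.22 ± 0.16), Zfp574 (0.35 ± 0.27) and Zfp593 (0.34 ± 0.27). Zfp386 had 12.9, 11.3 and 13.5 CPM untreated and 20.2, 12.6 and 12.0 CPM with PMA in HPg, against 18.1, 17.4 and 19.8 untreated and 13.7, 9.65 and 13.3 with PMA in KO-labelled cells. Its HPg groups overlapped and its KO groups did not. Transcripts of members had a median GC content of 44.5% against 49.8% for all genes tested, and with GC content and length corrected per library the median interaction was -0.02 over the members and 0.05 over all genes.

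The second question was how the lines differ. Few members differed by the test, and the median difference without PMA was above 0. Without PMA, 2 members were called higher in KO-labelled cells and 1 lower (0.699% and 0.35% of members, edgeR quasi-likelihood test), beside backgrounds of 0.806% and 0.511%. With PMA, 3 were higher and 0 lower (backgrounds 1.29% and 1.18%). At an unadjusted p below 0.05 there were 34 higher and 6 lower members without PMA, and 27 higher and 23 lower with PMA. With both directions pooled these were 13.99% of the members beside 14.34% of all genes without PMA, and 17.48% beside 18.42% with PMA. The pooled shares were near the background, and they do not compare the split into higher and lower. DESeq2 called 13 higher and 1 lower without PMA (backgrounds 2.81% and 1.85%) and 9 higher and 5 lower with PMA (backgrounds 3.54% and 3.52%). With the replicate block the calls were 27 higher and 1 lower without PMA (backgrounds 7.08% and 5.44%) and 21 higher and 17 lower with PMA (backgrounds 9.49% and 9.09%). With GC content and length corrected as well, the block's calls split into 20 higher and 14 lower without PMA and 27 and 28 with PMA. The median log2 difference, KO over HPg, was 0.14 without PMA (212 of 286 above 0, all genes 0.01) and -0.03 with PMA (131 above 0, all genes 0.01). With GC content and length corrected, the median without PMA was 0.02 over the members (155 of 286 above 0) and -0.09 over all genes. Without that correction, the members' median without PMA ranged from 0.09 to 0.18 when single libraries were left out. Its lowest value, 0.085, came without KO library 2. The 3 KO-labelled libraries lay above the 3 HPg libraries in 66 members without PMA (23.1%, background 9.57%) and below them in 13 (4.55%, background 8.95%). With PMA these counts were 39 and 39 (13.6% each, backgrounds 12.5% and 12.4%).

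Zfp467, which favours fat over bone cell formation, differed most. Without PMA its level was 1.398, 1.72 and 1.67 CPM in the HPg libraries against 6.34, 4.60 and 4.67 CPM in those labelled knockout, and with PMA 1.30, 1.65 and 1.06 against 5.71, 3.29 and 3.57 CPM. The lines did not overlap, and the log2 differences were 1.70 ± 0.26 (edgeR adjusted p = 0.00922) and 1.65 ± 0.26 (adjusted p = 0.0081). Zfp105 stood at 0.806, 1.27 and 1.29 against 3.06, 2.97 and 2.89 CPM without PMA, and at 0.873, 1.22 and 0.873 against 2.72, 2.28 and 2.23 CPM with PMA. Again no library of one line reached the other, with log2 differences of 1.41 ± 0.24 (edgeR adjusted p = 0.0176) and 1.28 ± 0.24 (adjusted p = 0.0196). Zfp365, a centrosomal protein with roles in genome stability, was lower in KO-labelled cells, at 13.4, 12.6 and 12.5 CPM against 19.8, 20.3 and 17.4 CPM in HPg without PMA. Its log2 difference was -0.58 ± 0.11 without PMA (edgeR adjusted p = 0.0246) and -0.43 ± 0.11 with PMA (adjusted p = 0.0581, and 0.00584 with the block). Zfp503, a corepressor in development, averaged 3.24 ± 0.536 in HPg against 5.36 ± 0.285 CPM without PMA (edgeR adjusted p = 0.0859, and 0.00596 with the block, n = 3 per group), and was called with PMA (log2 0.81, adjusted p = 0.0433). The calls without PMA were lost when single libraries were left out, all 3 of them without HPg library 3, and those with PMA without HPg PMA library 1 or 3.

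A list of 21 symbols with well described roles held 20 members, and Zfp42, a pluripotency marker, was at 0.00272 CPM. Of the 20, Zfp326, Zfp467 and Zfp503 were called in at least 1 comparison, as given above. Zfp809, which silences proviruses through their primer binding site, had 22.6 ± 2.84 CPM in HPg, 22.8 ± 2.63 with PMA, 25.1 ± 3.63 in KO-labelled cells and 22.7 ± 2.21 with PMA. Zfp568, which represses a placental Igf2 transcript, had 40.5 ± 5.71, 44.4 ± 2.84, 52.4 ± 13.3 and 54.0 ± 8.29 CPM in the same order, with an edgeR adjusted p of 0.369 between the untreated lines (0.047 with the block). Zfp57, which protects imprints, had 2.96 ± 0.881, 3.32 ± 1.54, 4.44 ± 0.661 and 5.72 ± 1.08 CPM, and its line differences passed with the block (edgeR adjusted p = 0.0434 and 0.00676 with it, 0.46 and 0.225 without). Zfp521 had 303 ± 71.5, 300.2 ± 13.1, 357 ± 67.4 and 232 ± 17.5 CPM, and its PMA fold change of -0.62 in KO-labelled cells had an edgeR adjusted p of 0.0938 (0.007 with the block). Zfp143, an activator at promoters of small nuclear RNA genes, Zfp148, which binds GC-rich promoters, Zfp207, Zfp217, Zfp281, Zfp335, Zfp462, Zfp516, Zfp809 and Zfp91 passed neither fit in any of the 5 comparisons. Zfp423, an early marker of fat precursors, was at 0.821, 5.87 and 1.69 CPM in untreated HPg libraries, and library 2 was the highest of its group in all 4 groups.

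By position, 131 members fell into 14 clusters, defined as at least 5 members of 1 chromosome whose successive starts lie within 1000 kb, and 155 fell into none. Members in a cluster had a median PMA change of -0.18 in HPg and -0.31 in KO-labelled cells, with 10 and 21 called lower (7.63% and 16.03%). Members in none had -0.02 and -0.20, with 5 and 16 called lower (3.23% and 10.32%). The median line difference without PMA was 0.20 in clusters and 0.09 outside them, and with PMA 0.04 and -0.06. Clusters did not all lie above 0. Without PMA the 8 members on chromosome 6 had a median of -0.10, with 6 of 8 below 0. The 22 members from Zfp160 to Zfp13 on chromosome 17 had 0.17 without PMA (20 of 22 above 0). With PMA they had -0.28 (19 of 22 below 0). With GC content and length corrected these 2 medians were 0.035 and -0.17.

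The cluster on chromosome 13 from Zfp712 to Zfp273 holds 13 members. Its median PMA change was -0.54 in KO-labelled cells, with 12 of 13 below 0 and Zfp273, Zfp85 and Zfp708 called lower, and -0.22 in HPg, with Zfp273 called. With GC content and length corrected these medians were -0.44 and -0.42, and the median interaction was -0.07 in place of -0.38. Zfp429 was the member above 0 in KO-labelled cells, from 5.14 to 6.71 CPM, and it was above 0 in both lines (log2 0.38 in KO-labelled cells and 0.37 in HPg, neither called). The median KO-labelled changes within replicate numbers were -0.45, -0.85 and -0.54. Without PMA all 13 log2 differences of KO-labelled over HPg cells were above 0 (median 0.30), and 0 of them were called. With GC content and length corrected the median was 0.15 with 11 of 13 above 0. With PMA the median line difference was -0.07 (9 of 13 below 0), and 0.09 with that correction (9 of 13 above 0). The other 514 protein-coding genes tested on chromosome 13 had medians of 0.05 between the untreated lines, 0.03 with PMA in HPg and -0.06 with PMA in KO-labelled cells.

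On chromosome 17, the 22 members from Zfp160 to Zfp13 had the largest gap between the lines among the 14 clusters. Their median PMA change was 0.18 in HPg, with 6 of 22 below 0, and -0.37 in KO-labelled cells, with 21 of 22 below 0. Zfp948 was called higher in both lines, and Zfp53, Zfp40 and Zfp947 were called lower in KO-labelled cells. The median interaction was -0.56 (-0.29 with GC content and length corrected), and 7 of the 15 members at an unadjusted interaction p below 0.05 belong to it (Zfp758, Zfp942, Zfp943, Zfp944, Zfp945, Zfp946 and Zfp947). Zfp944 had 18.4, 25.2 and 28.5 CPM in untreated HPg libraries and 37.9, 29.9 and 29.6 CPM with PMA, against 22.1, 24.5 and 24.9 and then 21.6, 17.8 and 22.1 CPM in KO-labelled cells. The HPg groups of Zfp944 did not overlap, and its KO groups did, by 1 library. Within replicate numbers the median HPg changes were 0.74, -0.11 and -0.12, and those of KO-labelled cells -0.21, -0.67 and -0.25. HPg library 1 was the lowest of its group in 15 of the 22 members, HPg PMA library 1 the highest of its group in 20 and KO PMA library 2 the lowest of its group in 20. Without HPg library 1 the median HPg change was 0.07, and with GC content and length corrected it was -0.05 in HPg and -0.30 in KO-labelled cells, so that the direction in HPg flipped under that correction. The other 633 protein-coding genes of chromosome 17 had medians of -0.06 in HPg and 0.02 in KO-labelled cells. A second cluster there, the 8 members from Zfp871 to Zfp414, had -0.05 and -0.29, with Zfp763 and Zfp563 called lower in KO-labelled cells. With GC content and length corrected its medians were -0.23 in HPg and -0.22 in KO-labelled cells, with 1 member called lower in each. Its median interaction was then -0.015 in place of -0.27.

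**Figure D4:**
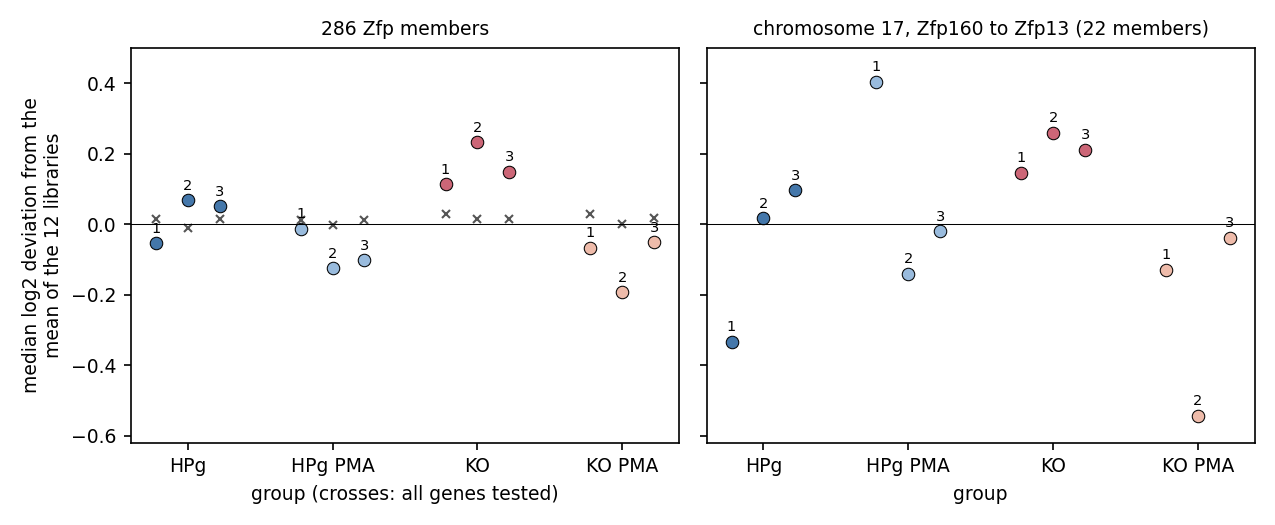
Median log2 deviation of each library from the mean of the 12 libraries, over the 286 members (left, with crosses for all genes tested) and over the 22 members of the chromosome 17 cluster from Zfp160 to Zfp13 (right); digits are replicate numbers. The untreated KO-labelled libraries are the 3 highest on the left, and on the right HPg library 1 (-0.33), HPg PMA library 1 (0.40) and KO PMA library 2 (-0.54) stand away from the other libraries of their groups.

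Chromosome 7 holds 7 of the clusters, and they did not all move alike. The 7 members from Zfp551 to Zfp446 had a median PMA change of -0.41 in HPg and -0.66 in KO-labelled cells. Zfp551, Zfp128 and Zfp324 were called lower in both lines and Zfp606 in KO-labelled cells, while Zfp110, a neighbour in the same cluster, had 51.7, 54.3, 64.9 and 66.3 CPM as group means in HPg, HPg with PMA, KO-labelled and KO-labelled with PMA. The 12 members from Zfp180 to Zfp526 had medians of -0.38 and -0.36. There Zfp108, Zfp94 and Zfp235 were called lower in both lines and Zfp112 and Zfp61 in KO-labelled cells, and 11 of 12 lay below 0 in HPg and 10 of 12 in KO-labelled cells. By contrast the 12 members from Zfp84 to Zfp146 had medians of -0.03 and -0.19 with none called, and the 10 from Zfp553 to Zfp646 had -0.20 and -0.09, also with none called.

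Line differences on chromosome 7 went in 1 direction in most clusters. Without PMA all 12 members from Zfp180 to Zfp526, all 12 from Zfp84 to Zfp146, all 8 from Zfp787 to Zfp772, all 7 from Zfp788 to Zfp719 and all 6 from Zfp628 to Zfp580 had log2 differences above 0, with medians of 0.21, 0.33, 0.27, 0.35 and 0.26 and no call. With GC content and length corrected these medians were 0.09 (10 of 12 above 0), 0.23 (12 of 12), 0.18 (6 of 8), 0.23 (7 of 7) and 0.16 (6 of 6). With chromosome medians removed they were 0.13 (9 of 12), 0.26 (12 of 12), 0.19 (7 of 8), 0.28 (7 of 7) and 0.18 (5 of 6), and without HPg library 1 the cluster from Zfp788 to Zfp719 had 0.16. Zfp260, in the Zfp84 to Zfp146 cluster, went from 30.7, 32.8 and 33.2 CPM in HPg libraries to 51.8, 42.6 and 40.3 CPM in those labelled knockout, with no overlap (log2 0.48, edgeR adjusted p = 0.134, and 0.0183 with the block). The 10 members from Zfp553 to Zfp646 had a median of -0.05. The other 976 protein-coding genes of chromosome 7 had medians of 0.07 without PMA and 0.17 with PMA, -0.10 with PMA in HPg and 0.00 with PMA in KO-labelled cells. The remaining clusters had median PMA changes in HPg and KO-labelled cells of -0.34 and -0.17 from Zfp628 to Zfp580, -0.21 and -0.19 from Zfp787 to Zfp772, -0.02 and -0.39 from Zfp788 to Zfp719, -0.27 and -0.27 on chromosome 6 (8 members), -0.04 and -0.22 on chromosome 8 (6), 0.06 and -0.01 on chromosome 9 (6) and -0.25 and -0.21 on chromosome 15 (6). In the cluster from Zfp788 to Zfp719 the HPg medians within replicate numbers were 0.51, -0.28 and -0.51, and without HPg library 1 the HPg median was -0.11. With chromosome medians removed that cluster and the one from Zfp84 to Zfp146 had HPg medians of 0.07 and 0.07, above 0. With clusters defined by 250 kb, 99 members fell into 12 clusters, and several medians moved. The cluster that ends with Zfp446 then held 5 members, without Zfp551 and Zfp606, with -0.10 in HPg and -0.34 in KO-labelled cells, and the 10 members from Zfp180 to Zfp428 had -0.44 and -0.61. The smaller cluster on chromosome 17 (7 members) had 0.11 in HPg and the one on chromosome 9 (5 members) -0.03, both on the other side of 0, and the one on chromosome 8 (5 members) had -0.25 and -0.13.

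**Figure D5:**
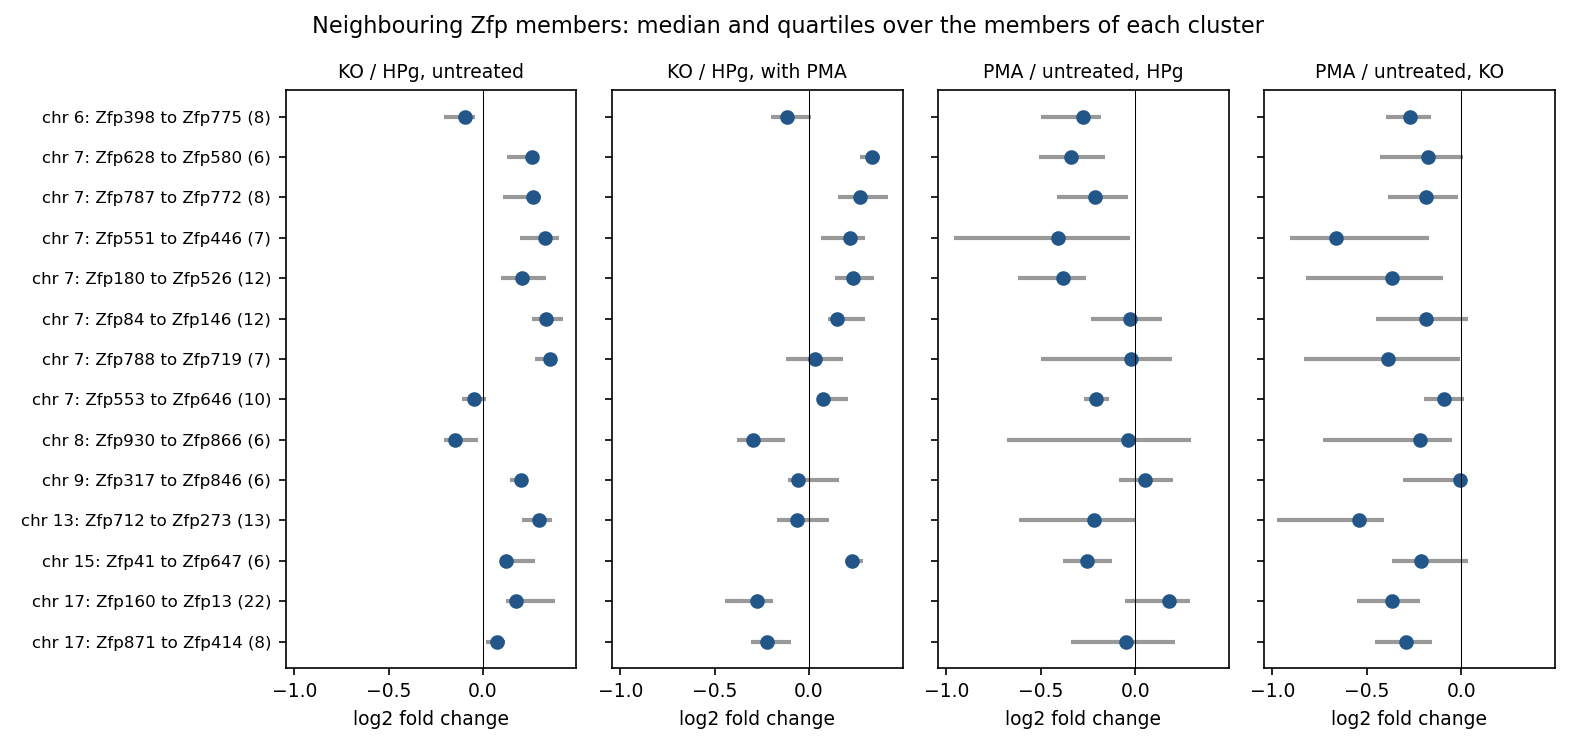
Median (point) and quartiles (line) of the log2 fold change over the members of each of the 14 clusters, named by first and last member with the number of members, in 4 comparisons. The PMA medians in KO-labelled cells are all below 0, from -0.66 to -0.01, and the chromosome 17 cluster from Zfp160 to Zfp13 has the highest median in HPg (0.18, and -0.05 with GC content and length corrected).

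Members with more fingers had lower PMA fold changes in KO-labelled cells. The median was -0.09 for the 42 members with 0 to 4 fingers, -0.15 for the 75 with 5 to 9, -0.31 for the 106 with 10 to 14 and -0.43 for the 62 with 15 or more. Of these, 2, 8, 17 and 10 were called lower, that is 4.76%, 10.67%, 16.04% and 16.13%, beside 1.63% of all genes tested. Across 285 members the rank correlation of finger count with the PMA change was -0.311 in KO-labelled cells and -0.089 in HPg. Less abundant members also had lower PMA fold changes, with rho between mean level and PMA change of 0.471 in HPg and 0.536 in KO-labelled cells, beside 0.169 and 0.165 over all genes tested. The 222 members at 5 CPM or more had medians of -0.01 in HPg and -0.18 in KO-labelled cells, with 8 and 24 called lower (3.6% and 10.81%).

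Related zinc finger families were measured beside them. Of 17 Zscan and Zkscan genes, which pair the fingers with a SCAN domain, 2 were called lower with PMA in HPg and 4 in KO-labelled cells, with none higher (medians -0.17 and -0.08). These are 11.76% and 23.53% of them, beside 5.24% and 12.94% of the members and 0.92% and 1.63% of all genes tested. Of 36 Zbtb genes, which pair the fingers with a BTB domain, none was called in HPg and 2 were called higher in KO-labelled cells (medians -0.03 and -0.02). The background for calls higher in KO-labelled cells was 2.81%. Among 33 tested partners of KRAB proteins, from a list of 35 symbols that includes Trim28 and Setdb1, the nucleosome remodeller Chd3 was higher in KO-labelled cells, at 69.6 ± 2.54 CPM against 18.8 ± 1.57 CPM without PMA (log2 1.89, edgeR adjusted p = 8.44e-06, n = 3 per group). Atf7ip, a cofactor of Setdb1, went from 67.4 ± 9.26 to 45.0 ± 3.401 CPM with PMA in KO-labelled cells (edgeR adjusted p = 0.0195, n = 3 per group), and the remodelling subunit Mta1 from 104 ± 10.2 to 74.5 ± 4.45 CPM in HPg (adjusted p = 0.0476). In this fit no other partner was called in the 4 comparisons of line and of PMA. With the replicate block others were. Among them were Trim28, higher in KO-labelled cells with PMA (log2 0.39, edgeR adjusted p = 0.0155), and Mbd3, lower without PMA (-0.47, adjusted p = 0.0072). The block's backgrounds for these directions were 9.49% and 5.44%.

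Promoter windows, from 250 bases before to 50 after the start, were found in RefSeq (GRCm38.p6) for 242 members, 298 windows in all. The windows of the pair that rose most and of 2 members that fell most are shown 5′ to 3′ on the gene's strand with each CG in capitals, since they moved in opposite directions under the same treatment:
Zfp948, chr17:21566728-21567027, plus strand: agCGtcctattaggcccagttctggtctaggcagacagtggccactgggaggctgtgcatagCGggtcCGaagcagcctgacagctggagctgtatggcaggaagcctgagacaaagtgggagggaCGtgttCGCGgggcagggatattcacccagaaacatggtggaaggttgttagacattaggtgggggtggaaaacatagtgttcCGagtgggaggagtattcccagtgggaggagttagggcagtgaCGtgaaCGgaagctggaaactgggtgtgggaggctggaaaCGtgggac
Zfp655, chr5:145231492-145231791, plus strand: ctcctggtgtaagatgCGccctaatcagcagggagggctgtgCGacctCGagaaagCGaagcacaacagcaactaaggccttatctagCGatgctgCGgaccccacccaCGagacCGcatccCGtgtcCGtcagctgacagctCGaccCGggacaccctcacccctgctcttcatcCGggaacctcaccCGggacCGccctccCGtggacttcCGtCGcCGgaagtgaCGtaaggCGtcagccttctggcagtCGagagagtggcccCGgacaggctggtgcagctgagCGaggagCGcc
Zfp273, chr13:67813566-67813865, plus strand: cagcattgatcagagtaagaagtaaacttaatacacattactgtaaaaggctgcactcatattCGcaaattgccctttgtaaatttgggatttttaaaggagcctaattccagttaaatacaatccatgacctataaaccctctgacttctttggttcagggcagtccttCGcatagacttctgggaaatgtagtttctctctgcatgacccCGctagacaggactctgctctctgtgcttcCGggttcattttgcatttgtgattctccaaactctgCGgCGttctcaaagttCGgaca
Zfp108, chr7:24254544-24254843, plus strand: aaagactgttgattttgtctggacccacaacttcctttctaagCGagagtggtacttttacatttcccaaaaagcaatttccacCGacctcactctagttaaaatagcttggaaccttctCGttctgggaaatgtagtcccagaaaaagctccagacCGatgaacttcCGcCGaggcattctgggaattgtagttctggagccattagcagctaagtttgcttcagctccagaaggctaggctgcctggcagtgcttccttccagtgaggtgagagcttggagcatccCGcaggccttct
They hold 10, 25, 7 and 7 CG pairs, where the median is 15 over the members' windows and 7 over all 32851 windows. The members had passed a threshold on level, while the 32851 windows outnumber the 16630 genes tested. No background of windows matched for expression was used, here or for the elements that follow. On both strands, the cyclic AMP element TGACGTCA occurred in 1.79% of all windows and 2.68% of members' windows, the AP-1 element TGANTCA in 7.81% and 4.03%, the EGR element GCGNGGGCG in 5.55% and 5.37%, and the CArG box of serum response factor in 1.63% and 1.01%. None of these letters was found in the windows of the 35 members called lower with PMA, of 40, or of the 7 called higher that had a window.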

How the data were processed

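RNA was measured in 12 libraries, 4 groups of 3 (biological triplicates, per the series' design text). Libraries were directional and read as paired ends from total RNA after removal of ribosomal RNA, per the labels' protocols. The authors deposited raw counts per gene, whole numbers that were not normalized. They used build mm9, STAR 2.5.0a, cutadapt 1.11, Subread and its featureCounts 1.4.6-p3, per the submitters' processing notes. Strand setting, annotation release and multi-mapping treatment were not given in these sources, so overlapping, antisense and near-identical genes (47 members overlap exons of another gene) are uncertain. Symbols, chromosomes, GC content and gene order came from GENCODE M21 on GRCm38, another build.

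All genes passing filterByExpr (minimum count 10, minimum total 15) were fitted with the edgeR 4.0.16 quasi-likelihood F-test (R 4.3.3, robust, TMM factors), with 1 coefficient per group over the 12 libraries, 5 comparisons and Benjamini-Hochberg adjustment over 16630 genes. Called means an adjusted p below 0.05. Levels are TMM-scaled CPM, mean ± SD, except that means over the 12 libraries use column totals. The SE of a log2 fold change was derived from the test, as its absolute value over the square root of F. The script was tested on simulated data. With 3 libraries a group, exact permutation of 1 gene's values reaches 0.1 at the least.

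Libraries of a group differed by more than sampling noise (chi-square per degree of freedom 111.7 to 744.2 in 12 pairs), so each counted as 1 replicate. Libraries of the same replicate number deviated together, and the main fit does not use the number. Deviations from group means correlated at 0.159 to 0.558 in the 18 same-number pairs and at -0.517 to 0.163 in the 36 others, while the labels do not say what a number shares.

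Per comparison the text names up to 15 called members in each direction by fold change, filled to 4 by unadjusted p, the 10 highest members, those nearest the threshold, up to 3 per cluster, the role list and called partners. Other genes were named after their values were seen. The members and lists were chosen with earlier results of these data known. Comparisons within a line share the fitted spread, and both PMA comparisons share libraries with both line comparisons. Fingers are matches to the pattern of 2 cysteines and 2 histidines.

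Alternatives were other scaling factors (library size, median ratio, upper quartile), other filters, DESeq2 1.42.0, a fit of only the groups compared, chromosome medians removed, the replicate block and each library left out; the correction for GC content and length by splines was added after seeing the data.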

Additional observations from a re-analysis of the deposited data

How the results depend on the processing

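Counts of members called depended on the fit, and in the line comparisons so did their split into higher and lower. None of the called single-gene results tried changed sign. For the lines compared untreated, the lines compared under PMA, PMA in HPg and PMA in KO-labelled cells, in that order, the counts were 3, 3, 20 and 42 as reported. They were 14, 14, 46 and 79 with DESeq2, 28, 38, 65 and 100 with the replicate block, 12, 19, 65 and 97 with the block and chromosome medians removed, and 34, 55, 81 and 111 with the block and GC content and length corrected. Fitting only the groups compared gave 0 for line without PMA, 6 for PMA in HPg and 23 for PMA in KO-labelled cells, and the GC and length correction without the block gave 5 for line with PMA and 31 for PMA in HPg. Leaving out 1 library gave 0 to 3, 0 to 5, 5 to 20 and 12 to 45, and 0 for the interaction. For line without PMA the count was 0 without HPg library 3 and 1 without HPg library 1 or KO library 1 or 3. For line with PMA it was 0 without HPg PMA library 1 or 3, 1 without KO PMA library 1 or 2 and 5 without HPg library 1 or 2. The cause of these differences was not tested.

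Splits of calls into higher and lower moved by over 10 points in some fits. PMA in HPg gave 2 higher and 14 lower with library-size scaling, PMA in KO-labelled cells 11 and 36 with GC and length corrected, and line with PMA 2 and 1 with library-size scaling, 2 and 2 with no filter and 4 and 1 with GC and length corrected. Line without PMA gave 2 and 2 with GC and length corrected and 2 and 0 with chromosome medians removed. With the block, line without PMA gave 27 higher and 1 lower, and 20 and 14 with GC and length also corrected. Line with PMA gave 21 and 17 with the block, and 27 and 28 with GC and length also corrected. Library-size scaling moved the median of all genes under PMA in KO-labelled cells from -0.02 to -0.14, and the members' median from -0.24 to -0.37. With GC and length corrected the members' medians were 0.02, 0.00, -0.16 and -0.20 in the order above, beside -0.09, -0.05, -0.04 and -0.01 over all genes. The other medians that moved by over the replicate spread were, with library-size scaling, -0.10 for the lines compared under PMA and -0.22 for the interaction. Of the single-gene values tried, 1255 kept their side of the threshold, 39 gained and 234 lost it. Low counts limit members near 1 CPM, such as Zfp108.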

Other observations

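The GC content of a member's transcript moved with the line differences and the PMA changes. Over 286 members the rank correlation of GC content with the log2 difference of KO-labelled over HPg cells was -0.315 without PMA and 0.489 with PMA, beside -0.088 and 0.298 over the 15764 genes tested that have a GC value. With the PMA change it was -0.313 in HPg and 0.281 in KO-labelled cells, beside -0.317 and 0.076. These are descriptions over genes that share the same libraries and are not independent of each other, and the part of GC content in the results was not tested beyond the corrected fit.

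Zfp symbols with letters after the digits stand outside the members. Of the 24 tested, 2 were called higher and 1 lower with PMA in KO-labelled cells and 2 higher in HPg, and their medians were -0.29 and -0.01. The backgrounds were 2.81% higher and 1.63% lower in KO-labelled cells and 2.53% higher in HPg. The excluded Zfp36, an immediate-early gene, went from 7.07 ± 1.02 to 88.4 ± 30.9 CPM with PMA in HPg and from 7.94 ± 1.61 to 163 ± 33.6 CPM in KO-labelled cells (edgeR adjusted p = 7.89e-06 and 1.74e-06, n = 3 per group).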
